A study of Mus musculus with 6 samples.

Results

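The genes described here encode the mitochondrial respiratory chain and its ATP synthase. They were taken as the protein-coding genes of the mitochondrial chromosome plus those nuclear protein-coding genes whose symbols follow the nomenclature of complex I (Nduf), complex II (Sdh), complex III (Uqcr), complex IV (Cox4 to Cox8) and ATP synthase (Atp5). This rule used no measured value and found 98 of the 54532 genes in the table, 13 of them on the mitochondrial chromosome and 85 in the nucleus. Both Atp5o entries of the table are among the 85, and the second was at 0 in every library. Ndufa4 and Ndufa4l2 were placed with complex IV, where the NDUFA4 protein resides, and Atp5s was kept apart because its product is not an ATP synthase subunit.

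The libraries came from CD4+ T cells purified from spleens of C57BL/6 mice and cultured under Th1 conditions, which drive interferon-gamma-producing helper cells, for 72 h. The 2 groups were 3 cultures with idelalisib and 3 control cultures without it. Idelalisib inhibits the delta isoform of phosphoinositide 3-kinase, a signalling enzyme of lymphocytes. Neither its dose nor any solvent is named in the labels. The titles call the cultures biological replicates but do not say whether each came from a separate mouse, so p-values measure the spread between cultures, which may be technical.

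The respiratory chain sits in the inner mitochondrial membrane. Complex I and complex II pass electrons from NADH and succinate to ubiquinone, complex III passes them to cytochrome c and complex IV to oxygen, and the protons that complexes I, III and IV pump drive ATP synthase. Complexes I, III, IV and ATP synthase combine subunits of both genomes, whereas complex II is wholly nuclear encoded. Mitochondrial genes are transcribed as long precursor RNAs from both strands of the circular genome and cut at the tRNAs between them. Activated T cells use both glycolysis and respiration, and they enlarge their mitochondria as they grow.

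Total counts were 13372318 to 16035945 in the idelalisib libraries and 14879325 to 16770452 in the control libraries. The first principal component separated the groups and held 67.9% of the variance, and the second, with 11.8%, set idelalisib replicate 2 apart. Of 14530 genes tested, 3223 were higher and 3256 lower with idelalisib, that is 22.2% and 22.4%, or 44.6% called at an adjusted p under 0.05. TMM scaling put the median log2 fold change of all tested genes at 0.01, and scaling by library size alone put it at 0.16. All 7 CD4+ T cell markers were expressed, with a summed level of 2514 to 2674 CPM (counts scaled to the size of the library) with idelalisib and 2566 to 2600 CPM in control. Of these markers Cd3e and Cd3g were called higher with idelalisib and the others were not called. Eomes led the NK list and was called higher. That list summed to 7.18 to 10.9 CPM with idelalisib and 2.82 to 3.43 CPM in control, while Ncr1 was at 0 in all libraries. Ly6g, which was called higher, made up nearly all of the granulocyte list (105 to 126 CPM with idelalisib, 36.8 to 42.0 CPM in control). S100a8 and S100a9 were at 0 in the control libraries and under 1 CPM with idelalisib. The B cell list summed to 22.02 to 27.5 CPM with idelalisib and 19.9 to 20.5 CPM in control, most of it Ebf1, which was not called. Its other genes were each under 4 CPM in every library, and of these Cd79a, Cd79b and Pax5 were called higher. The CD8 T cell list summed to 7.24 to 9.50 CPM with idelalisib and 4.43 to 7.86 CPM in control, Cd8a being called higher and Cd8b1 not called. The erythroid list summed to under 3 CPM in every library and held no call. The macrophage and dendritic cell list summed to 10.1 to 13.6 CPM with idelalisib and 16.8 to 18.0 CPM in control. Most of it was Cd68, which was called lower. The part of these markers in the results on the respiratory chain was not tested, and in bulk RNA fewer cells of a type and less RNA per cell cannot be told apart. Pik3cd, which encodes the kinase that idelalisib inhibits, had 712, 609 and 739.8 CPM in the idelalisib libraries, against 789, 776 and 784 CPM in the control libraries (log2 fold change -0.19 with SE 0.08, edgeR adjusted p = 0.082), so it did not pass the test.

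Idelalisib cells had higher relative levels of several mitochondrial-encoded complex I genes, while the nuclear-encoded genes split into a few higher, more lower and a majority that did not pass the test. Of the 92 genes tested, 13 were higher and 15 lower, so 28 were called, or 30.4%, against 44.6% of all genes tested. The differences were small. The median absolute log2 fold change was 0.198 over these genes and 0.361 over all genes tested, and 8 of the 92, or 8.70%, exceeded 0.5 in size, against 36.6% of all genes. Of the 85 tested members averaging at least 10 CPM, 25 were called, or 29.4%, beside 4532 of 9063 genes, or 50%, at that level in the whole table. The median log2 fold change over the 92 was -0.07.

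**Figure D1:**
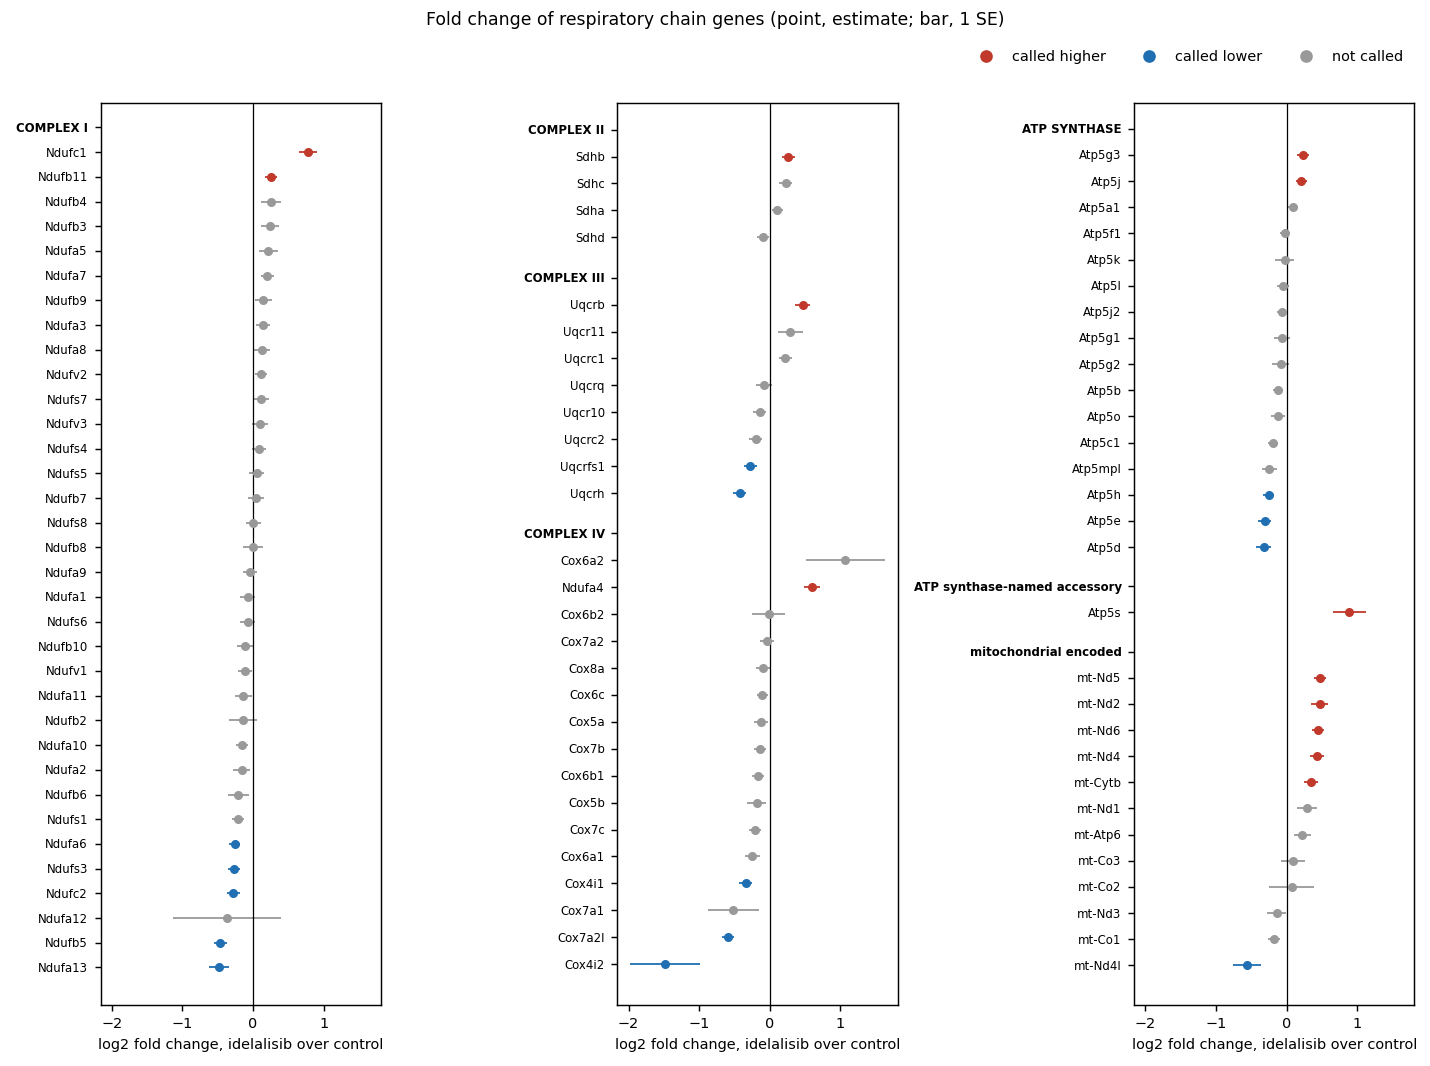
Log2 fold change, idelalisib over control, of the respiratory chain genes reported, 1 gene a line, grouped by complex and genome (points, estimates; bars, 1 standard error; colours, the call). Most points lie within 0.5 of 0, and the tested mitochondrial-encoded genes at the foot of the right panel have a median of 0.25.

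The balance of higher and lower calls moved with the scaling. With library size alone 26 genes were called higher and 4 lower (33.3% and 15.3% of all genes), and the median over the 92 was 0.08. When only protein-coding genes were tested 10 were higher and 21 lower (23.1% and 23.5% of all genes). No gene among the 28 changed sign under any alternative. Leaving out 1 library moved the counts too. There were 15 higher and 7 lower members without idelalisib replicate 1 (36.9% of all genes called), 20 and 18 without idelalisib replicate 2 (47.6%) and 10 and 21 without idelalisib replicate 3 (42.6%). There were 9 higher and 9 lower without control replicate 1 (34.2%), 9 and 11 without control replicate 2 (36.4%) and 8 and 7 without control replicate 3 (33.8%). The calls of mt-Nd2, mt-Nd4, mt-Nd5, mt-Nd6, Ndufb5, Ndufc1, Uqcrb, Uqcrh, Cox4i1, Cox7a2l, Ndufa4 and Atp5s held whichever library was left out. All of these but Cox4i1 also held under every other scaling, filter and tool tried.

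The mitochondrial genome encodes 13 of the proteins, 7 of them complex I subunits that form its membrane arm. Among the 12 mitochondrial-encoded genes tested, 5 were higher with idelalisib, 1 was lower and 6 did not pass. The called share was 50%, beside 44.6% of all genes tested, of which 22.2% were higher and 22.4% lower. The median log2 fold change of the 12 was 0.25 (0.41 with library size alone, where the median of all genes was 0.16). The higher genes were mt-Nd2, mt-Nd4, mt-Nd5 and mt-Nd6, all subunits of complex I, and mt-Cytb, the cytochrome b of complex III.

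mt-Nd5, a proton-pumping subunit of complex I, had 1451, 1691 and 1415 CPM in the idelalisib libraries, against 1150.3, 1049 and 1094 CPM in the control libraries. Every idelalisib library was above every control library, a 1.38-fold difference (log2 fold change 0.47 with SE 0.09, edgeR adjusted p = 0.000562). mt-Nd2, another pumping subunit, had 719.8, 1008 and 754 CPM in the idelalisib libraries, against 646, 607 and 545 CPM in the control libraries. The groups did not overlap, with idelalisib replicate 2 the highest (log2 fold change 0.47 with SE 0.12, edgeR adjusted p = 0.00624). mt-Nd4, the third of the pumping subunits, had 683, 863 and 682 CPM in the idelalisib libraries, against 599, 547 and 504 CPM in the control libraries, again without overlap (log2 fold change 0.43 with SE 0.10, edgeR adjusted p = 0.00323). mt-Nd6 is the only protein gene on the light strand of the mitochondrial genome and ends within mt-Nd5 on the other strand. It had 233, 279 and 247 CPM in the idelalisib libraries, against 177, 183 and 197 CPM in the control libraries, and its groups were separate (log2 fold change 0.45 with SE 0.09, edgeR adjusted p = 0.000886). Reads of the opposite strand over mt-Nd6 cannot be told apart from its own, since the strand setting of the counting is not given.

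mt-Cytb, which carries the quinone sites of complex III, had 774, 922 and 807 CPM in the idelalisib libraries, against 728, 658 and 583 CPM in the control libraries. All 3 idelalisib values lay above all 3 control values (log2 fold change 0.35 with SE 0.10, edgeR adjusted p = 0.00915), but the call did not hold without control replicate 3 (adjusted p = 0.0709). mt-Nd1, the subunit beside the ubiquinone site, had 977, 1537 and 1076 CPM in the idelalisib libraries, against 1047, 948 and 949 CPM in the control libraries. Only idelalisib replicate 2 stood clear of the other libraries, the groups overlapped, and the gene did not pass the test (log2 fold change 0.29 with SE 0.15, edgeR adjusted p = 0.142). Without idelalisib replicate 1 it was called higher, as it was with library size alone.

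mt-Co1, the catalytic subunit of complex IV that binds its haems, was the most abundant of all 98 genes per length, at 7919 ± 598 CPM per kilobase with idelalisib and 8948 ± 597 CPM per kilobase in control. It had 11224, 13038 and 12444 CPM in the idelalisib libraries, against 14839, 13598 and 13036 CPM in the control libraries. The groups overlapped and the gene did not pass (log2 fold change -0.18 with SE 0.08, edgeR adjusted p = 0.0969), although without idelalisib replicate 2 it was called lower. mt-Co2, which receives electrons from cytochrome c, had 16.98, 36.7 and 17.1 CPM in the idelalisib libraries, against 22.02, 20.5 and 24.5 CPM in the control libraries, with idelalisib replicate 2 far above every other library (log2 fold change 0.07 with SE 0.32, edgeR adjusted p = 0.87). Without that library its log2 fold change was -0.38, and it was called lower. mt-Co3, the third core subunit, had 15.4, 26.5 and 20.8 CPM in the idelalisib libraries, against 18.6, 22.0 and 18.4 CPM in the control libraries and overlapping groups (log2 fold change 0.08 with SE 0.17, edgeR adjusted p = 0.712).

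mt-Atp6, the subunit of ATP synthase along which protons cross, had 19.9, 17.4 and 18.9 CPM in the idelalisib libraries, against 15.4, 15.7 and 17.4 CPM in the control libraries. These values did not overlap but the difference did not pass (log2 fold change 0.22 with SE 0.12, edgeR adjusted p = 0.16). With library size alone mt-Atp6 was called higher (log2 fold change 0.37, edgeR adjusted p = 0.0208). mt-Atp8, its small partner, was not tested, with 5, 4 and 10 reads with idelalisib and 26, 2 and 10 reads in control. mt-Nd3, a small complex I subunit, had 24.7, 36.1 and 30.2 CPM in the idelalisib libraries, against 32.5, 30.8 and 37.03 CPM in the control libraries and did not pass (log2 fold change -0.14 with SE 0.13, edgeR adjusted p = 0.406). mt-Nd4l, another small complex I subunit, had 5.86, 6.58 and 5.32 CPM in the idelalisib libraries, against 7.95, 7.13 and 11.1 CPM in the control libraries. It was the only mitochondrial-encoded gene called lower (log2 fold change -0.56 with SE 0.20, edgeR adjusted p = 0.0349), and the call was lost without idelalisib replicate 1, idelalisib replicate 3, control replicate 1 or control replicate 3 (adjusted p up to 0.207) and with library size alone.

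**Figure D2:**
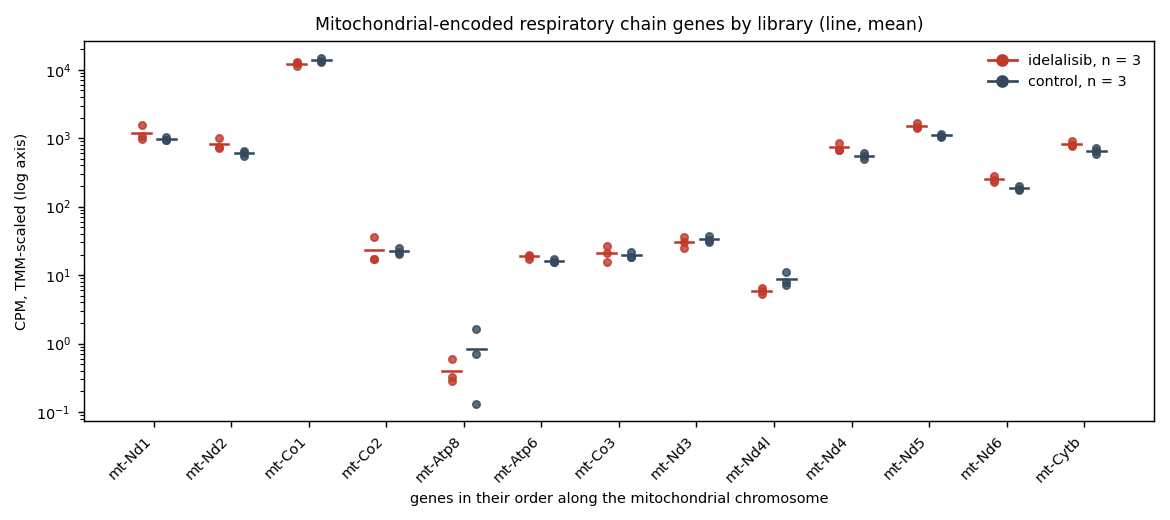
CPM (log axis) of the 13 mitochondrial-encoded genes in each library, idelalisib left of control within each gene, with a line at each group mean (n = 3). mt-Co1 lies above all others in every library, and mt-Nd2, mt-Nd4, mt-Nd5, mt-Nd6 and mt-Cytb show separate groups.

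The low readings of some mitochondrial genes went with sequence that the nuclear genome also holds. Each gene was cut into every run of 50 bases, and the runs that also occur in other annotated transcripts were counted. All runs of mt-Co2 occurred elsewhere, as did 99.9% of those of mt-Co3, 99.5% of mt-Atp6, 98.8% of mt-Nd4l and 98% of mt-Nd3. Their copies are annotated side by side on the minus strand of chromosome 1. The start of mt-Co2 and of its nuclear copy Gm28661, shown because the 2 cannot be told apart by any read that lies within them, are identical over 100 bases (build mm10, MT:7013-7112, plus strand, and chr1:24615466-24615565, minus strand):
mt-Co2: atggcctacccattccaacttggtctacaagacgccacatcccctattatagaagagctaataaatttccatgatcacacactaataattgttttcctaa
Gm28661: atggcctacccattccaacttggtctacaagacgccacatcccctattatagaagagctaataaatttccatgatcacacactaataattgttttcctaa
Over the whole aligned length, mt-Co2 and Gm28661 had 0 differences in 681 bases, mt-Atp6 and Gm10925 had 0 in 678, mt-Co3 and Gm28437 had 0 in 783, and mt-Nd4l and Gm10222 had 0 in 294. mt-Nd3 and Gm28438 differed at 1 of 345 bases (T3C, the mitochondrial base first, counted from the first base of mt-Nd3).

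mt-Co1 stood between these and the unique genes, with 51.1% of its 1496 runs found elsewhere, 430 of them in Gm29216. That annotated copy aligns to bases 1054 to 1545 of the gene and differs at 6 of 492 bases, all within the first 13 bases of the aligned stretch. The start of that stretch is shown with the differing bases in capitals (mm10, MT:6381-6480, plus strand, and chr1:24616098-24616197, minus strand):
mt-Co1: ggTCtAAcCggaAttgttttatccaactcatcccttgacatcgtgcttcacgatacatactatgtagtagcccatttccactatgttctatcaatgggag
Gm29216: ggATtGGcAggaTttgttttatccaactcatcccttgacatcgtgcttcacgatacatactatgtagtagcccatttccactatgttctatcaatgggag
Counted from the first base of mt-Co1, with the mitochondrial base first, the differences are T1056A, C1057T, A1059G, A1060G, C1062A and A1066T. mt-Nd4 shared 62.2% of its runs, those of its first 876 bases, with Gm28439, which had 0 differences there. mt-Nd2 and mt-Nd5 shared 8.19% and 7.61%, and mt-Nd1, mt-Nd6, mt-Cytb and mt-Atp8 shared none.

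The 5 genes with over 95% of their runs elsewhere had mean levels of 19.9 to 87.2 CPM per kilobase with idelalisib and 23.7 to 96.1 in control. By contrast, mt-Nd1 had 1251 ± 313 CPM per kilobase with idelalisib and 1025 ± 59.5 CPM per kilobase in control, and mt-Nd6, the lowest of the tested genes with under 10% shared, had 488 ± 45.6 CPM per kilobase with idelalisib and 357 ± 20.4 CPM per kilobase in control. mt-Atp8, which shares nothing with annotated transcripts, had 1.98 CPM per kilobase with idelalisib and 4.04 in control. It lies between mt-Co2 and mt-Atp6, whose chromosome 1 copies flank a stretch with no annotated transcript. Whether that stretch matches mt-Atp8 was not tested, and neither was the cause of its low level. The nuclear copies had reads themselves. Over the 6 libraries Gm28661 had 141 to 206 reads, beside 258 to 518 of mt-Co2. Gm10925 had 201 to 260 reads, beside 237 to 317 of mt-Atp6, and Gm10222 had 24 to 38, beside 89 to 155 of mt-Nd4l. The labels do not say how reads that match several places were counted, so the levels of mt-Co2, mt-Co3, mt-Atp6, mt-Nd3 and mt-Nd4l and their differences are uncertain. The same holds in part for mt-Nd4 and mt-Co1, with 62.2% and 51.1% of their runs elsewhere. None of the 5 genes over 95% was called higher and 1 was called lower, beside 22.2% higher and 22.4% lower of all genes tested. Of the 5 tested genes with under 10% shared, 4 were called higher. Whether the calls depend on shared sequence was not tested. Between these, mt-Nd4 was called higher and mt-Co1 was not called. With library size alone mt-Atp6 was called higher and mt-Nd4l was not called (adjusted p = 0.11). All 5 tested genes with under 10% shared were then called higher, beside 33.3% of all genes.

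**Figure D3:**
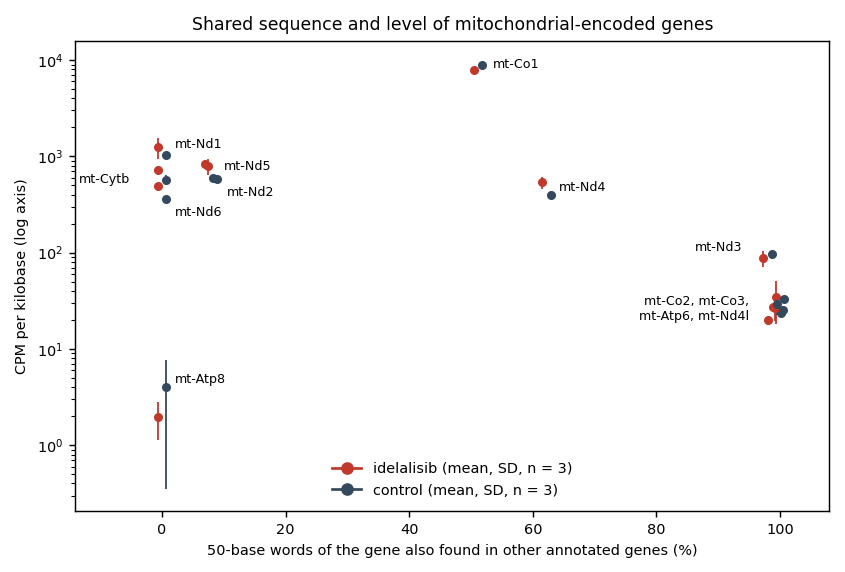
Mean level per length (log axis, CPM per kilobase, bars SD, n = 3) of each mitochondrial-encoded gene, idelalisib and control, against the percentage of its 50-base runs that occur in other annotated transcripts. The genes over 95% lie below 100 CPM per kilobase, and the tested genes under 10% lie above 300.

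Mitochondrial-encoded genes took 1.71%, 2.06% and 1.83% of all counts in the idelalisib libraries and 1.84%, 1.67% and 1.60% in the control libraries. The groups overlapped, with means of 1.87 ± 0.175% with idelalisib and 1.70 ± 0.122% in control (SD, n = 3 each). Most of this was mt-Co1, at 1.29 ± 0.0943% with idelalisib and 1.31 ± 0.0963% in control. The other mitochondrial-encoded genes took 0.522%, 0.678% and 0.530% with idelalisib, against 0.424%, 0.386% and 0.374% in control, without overlap. mt-Co1 therefore made up 69.5%, 67.0% and 71.0% of mitochondrial-encoded counts with idelalisib, against 76.9%, 76.9% and 76.6% in control. Nuclear-encoded genes took 0.733 ± 0.0428% of counts with idelalisib and 0.704 ± 0.00723% in control, a difference within the idelalisib spread. These shares use unscaled totals and were not tested. Idelalisib replicate 2 was the highest idelalisib library for 11 of the 12 mitochondrial-encoded genes tested, and idelalisib replicate 3 was the highest for 55 of the 80 nuclear-encoded genes tested.

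Among the 35 nuclear-encoded complex I genes, all tested, 2 were higher with idelalisib, 6 were lower and 27 did not pass. That is 22.9% called, beside 44.6% of all genes tested. The median log2 fold change was -0.04 (0.11 with library size alone). The core genes encode the arm that reaches into the matrix, binds NADH and holds the iron-sulfur clusters. Ndufs3, a matrix-arm subunit, had 53.1, 48.9 and 54.6 CPM in the idelalisib libraries, against 64.6, 64.01 and 59.9 CPM in the control libraries, all idelalisib values being lower (log2 fold change -0.27 with SE 0.09, edgeR adjusted p = 0.021). Ndufs1, which carries some of the iron-sulfur clusters, had 68.0, 76.5 and 69.9 CPM with idelalisib and 77.6, 84.02 and 87.6 CPM in control and did not pass (log2 fold change -0.22 with SE 0.09, edgeR adjusted p = 0.054). Ndufv1, which binds NADH, had 65.6, 52.8 and 64.6 CPM with idelalisib and 59.8, 69.7 and 68.8 CPM in control, with overlapping groups (log2 fold change -0.11 with SE 0.10, edgeR adjusted p = 0.381). Ndufv2, Ndufs7 and Ndufs8, matrix-arm subunits that hold iron-sulfur clusters, had log2 fold changes of 0.12, 0.11 and 0.00 and did not pass.

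The accessory genes encode subunits that stabilise the core. Ndufc1 (ENSMUSG00000037152, chr3:51404677-51408988), a small membrane-arm subunit, had 19.6, 22.2 and 20.96 CPM in the idelalisib libraries, against 12.3, 12.9 and 11.4 CPM in the control libraries. It was 1.71-fold higher, the largest change among nuclear-encoded complex I genes, and its groups were widely separate (log2 fold change 0.77 with SE 0.12, edgeR adjusted p = 0.000208). Ndufb11, a membrane-arm subunit encoded on the X chromosome, had 84.1, 85.2 and 100.3 CPM in the idelalisib libraries, against 73.5, 77.6 and 75.1 CPM in the control libraries (log2 fold change 0.25 with SE 0.09, edgeR adjusted p = 0.0326). Ndufb5, a membrane-arm subunit, had 38.4, 40.9 and 40.3 CPM in the idelalisib libraries, against 51.4, 55.3 and 58.2 CPM in the control libraries and a narrow spread within each group (log2 fold change -0.46 with SE 0.09, edgeR adjusted p = 0.000839). Ndufa13, also known as GRIM-19, had 31.8, 30.02 and 47.5 CPM in the idelalisib libraries, against 48.7, 50.6 and 53.8 CPM in the control libraries, and idelalisib replicate 3 came within 2 CPM of the lowest control library (log2 fold change -0.48 with SE 0.15, edgeR adjusted p = 0.0189). Ndufa6 and Ndufc2 were lower by less, with log2 fold changes of -0.26 (adjusted p = 0.0184) and -0.28 (adjusted p = 0.0245).

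The remaining accessory genes did not pass, and most of their log2 fold changes lay between -0.2 and 0.25. Ndufa12 varied more than any other complex I gene, with 7.57, 23.9 and 10.9 CPM with idelalisib and 20.5, 27.8 and 5.65 CPM in control (log2 fold change -0.36 with SE 0.76, edgeR adjusted p = 0.742). The calls of Ndufs3, Ndufa6, Ndufa13 and Ndufc2 were lost with library size alone. Without idelalisib replicate 1 the same calls were lost, with adjusted p up to 0.0896 for Ndufs3, 0.076 for Ndufa6, 0.088 for Ndufa13 and 0.111 for Ndufc2 over the libraries left out. Control replicate 3 was also needed for Ndufa6, Ndufa13 and Ndufc2, control replicate 1 for Ndufs3, Ndufa6 and Ndufc2, control replicate 2 for Ndufs3, and idelalisib replicate 2 for Ndufc2. The call of Ndufb11 was lost without idelalisib replicate 3 or any of the control replicates (adjusted p up to 0.132) and held with library size alone. Ndufs3, Ndufb5, Ndufb11 and Ndufa13 overlap an annotated gene on the other strand (Kbtbd4, Mrpl47, Rbm10 and Tssk6 in that order), whose reads cannot be told apart from theirs where the 2 overlap. Ndufa13 also overlaps Yjefn3 and Ndufc2 overlaps Gm16053, each on the same strand.

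Complex II, or succinate dehydrogenase, is also an enzyme of the tricarboxylic acid cycle. All 4 genes were tested, 1 was higher, 3 did not pass and the median log2 fold change was 0.16 (0.32 with library size alone). The called share was 25%, beside 44.6% of all genes tested. Sdhb, the iron-sulfur subunit, had 81.5, 93.7 and 105 CPM in the idelalisib libraries, against 74.02, 80.98 and 78.6 CPM in the control libraries and separate groups (log2 fold change 0.26 with SE 0.10, edgeR adjusted p = 0.0402). This call rested on every control library and on idelalisib replicate 3, the adjusted p reaching 0.167 when 1 of them was left out. Sdhc, a membrane anchor, had 64.2, 68.3 and 75.1 CPM in the idelalisib libraries, against 59.6, 60.97 and 57.5 CPM in the control libraries, which did not overlap but did not pass (log2 fold change 0.22 with SE 0.09, edgeR adjusted p = 0.0518). Without idelalisib replicate 1 or idelalisib replicate 2 Sdhc was called higher. Sdha, the flavin-binding subunit that oxidises succinate, had 261, 243 and 254 CPM with idelalisib and 243, 229 and 233 CPM in control (log2 fold change 0.11 with SE 0.07, edgeR adjusted p = 0.268), and Sdhd, the other anchor, had 73.3, 77.9 and 87.9 CPM with idelalisib and 82.03, 85.7 and 87.4 CPM in control (log2 fold change -0.09 with SE 0.09, edgeR adjusted p = 0.413).

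Of the 8 nuclear-encoded complex III genes, 1 was higher, 2 were lower and 5 did not pass. That is 37.5% called, beside 44.6% of all genes tested. The median log2 fold change was -0.11 (0.04 with library size alone). Uqcrh, the acidic hinge subunit near the cytochrome c site, had 82.7, 98.9 and 91.6 CPM in the idelalisib libraries, against 115, 119 and 133 CPM in the control libraries, without overlap (log2 fold change -0.43 with SE 0.09, edgeR adjusted p = 0.00183). Uqcrb, the ubiquinone-binding-protein subunit, went the other way with 23.2, 25.4 and 24.8 CPM in the idelalisib libraries, against 18.3, 17.6 and 17.3 CPM in the control libraries and tight groups (log2 fold change 0.46 with SE 0.11, edgeR adjusted p = 0.0036). Uqcrfs1, the Rieske iron-sulfur protein, had 87.9, 112 and 103 CPM in the idelalisib libraries, against 115, 121 and 131 CPM in the control libraries (log2 fold change -0.28 with SE 0.10, edgeR adjusted p = 0.0316), a call that was lost without idelalisib replicate 1, control replicate 2 or control replicate 3 (adjusted p up to 0.185) and with library size alone. The pair of large core proteins did not overlap between groups and lay in opposite directions without passing. Uqcrc1 had 129, 139.8 and 161 CPM with idelalisib and 117, 128 and 124 CPM in control (log2 fold change 0.22 with SE 0.09, edgeR adjusted p = 0.062), and Uqcrc2 had 171, 165 and 197 CPM with idelalisib and 200.2, 214 and 199 CPM in control (log2 fold change -0.20 with SE 0.09, edgeR adjusted p = 0.0663). Uqcrc1 was called higher without idelalisib replicate 1 or 2, and Uqcrc2 was called lower without idelalisib replicate 3. The small subunit genes Uqcr10, Uqcr11 and Uqcrq had log2 fold changes of -0.14, 0.29 and -0.08 and did not pass. Uqcrh overlaps Gm12854 and Uqcrb overlaps Gm10767 on the other strand.

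Complex IV had 16 of its 20 nuclear-encoded genes tested, of which 1 was higher, 3 were lower and 12 did not pass. The called share was 25%, beside 44.6% of all genes tested. The median log2 fold change was -0.15, and 0.00 with library size alone. Cox7a2l, a relative of the COX7A subunits that links complexes III and IV in supercomplexes and of which C57BL/6 mice carry a shortened form, had 170.1, 195 and 201 CPM in the idelalisib libraries, against 268, 285 and 302 CPM in the control libraries. It was 1.51-fold lower, far outside the spread of either group (log2 fold change -0.59 with SE 0.09, edgeR adjusted p = 9.11e-05). Ndufa4, first assigned to complex I and now known as a complex IV subunit, had 36.3, 43.8 and 43.4 CPM in the idelalisib libraries, against 24.2, 26.1 and 31.5 CPM in the control libraries, the groups being separate (log2 fold change 0.60 with SE 0.12, edgeR adjusted p = 0.00111). Cox4i1, the ubiquitous form of the COX4 subunit, had 202, 220.1 and 240.3 CPM in the idelalisib libraries, against 263, 272 and 306 CPM in the control libraries (log2 fold change -0.34 with SE 0.09, edgeR adjusted p = 0.00608). It kept its call whichever library was left out (adjusted p up to 0.0487) and lost it with library size alone. Cox4i1 overlaps Emc8 on the other strand and Gm20388 on its own. Cox5a and Cox5b, which complete the matrix side of the complex, had log2 fold changes of -0.13 (adjusted p = 0.3) and -0.19 (adjusted p = 0.288). Cox5b was called lower without idelalisib replicate 3. The other ubiquitous subunit genes had log2 fold changes of -0.25 for Cox6a1, -0.17 for Cox6b1, -0.11 for Cox6c, -0.14 for Cox7b, -0.21 for Cox7c and -0.10 for Cox8a, all below 0 and none past the test, though with library size alone Cox8a, Cox7b and Cox6c lay above 0. Cox6a1 was called lower without idelalisib replicate 3 (log2 fold change -0.38, edgeR adjusted p = 0.00187).

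Several complex IV subunits exist as a ubiquitous form and a form restricted to muscle, lung or testis, and the ubiquitous form dominated in these T cells. Cox6a1 had 99.2 ± 0.174% of the summed per-length level of Cox6a1 and Cox6a2 with idelalisib and 99.7 ± 0.244% in control. Cox6b1 had 95.1 ± 1.52% of its family with idelalisib and 95.6 ± 0.267% in control. Cox7b2 and Cox8c had no read in any library, and Cox8b had a single read in 1 library of each group. Cox6a2, the heart and muscle form, had 19, 10 and 25 reads with idelalisib and 11, 13 and 1 reads in control and did not pass (log2 fold change 1.07 with SE 0.56, edgeR adjusted p = 0.134). Ndufa4l2, a relative of Ndufa4 known for induction by low oxygen, had 3, 0 and 1 reads with idelalisib and 6, 2 and 0 reads in control and was not tested. Cox4i2, the form known for induction by low oxygen in lung, was rare, with 7, 5 and 4 reads with idelalisib and 22, 13 and 10 reads in control. It was called lower (log2 fold change -1.49 with SE 0.49, edgeR adjusted p = 0.0244), but DESeq2 did not call it, nor did edgeR without idelalisib replicate 3 or control replicate 1 (adjusted p up to 0.147). Its share of the COX4 pair was 0.319 ± 0.126% with idelalisib and 0.698 ± 0.289% in control.

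Within the COX7A family the proportions differed more. Cox7a2l made up 69.7%, 72.3% and 70.5% of the family's per-length level with idelalisib, against 75.4%, 77.7% and 80.5% in control. Cox7a2 made up 28.4 ± 1.27% with idelalisib and 21.3 ± 2.46% in control, while its own level was 62.2 ± 4.46 CPM with idelalisib and 64.1 ± 5.73 CPM in control (log2 fold change -0.04 with SE 0.09, edgeR adjusted p = 0.744). Cox7a1, the heart and muscle form, was under 1% in every library. These shares were not tested.

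**Figure D4:**
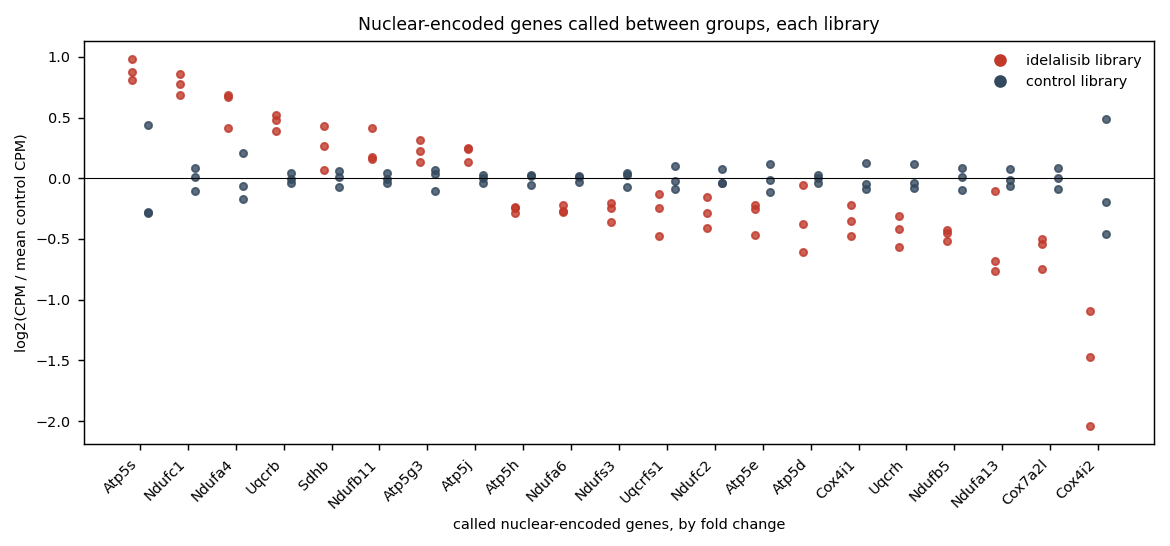
Log2 ratio of the CPM in each library to the mean CPM of the 3 control libraries, for the reported nuclear-encoded respiratory chain genes that were called, ordered by fold change, with idelalisib left of control within each gene and a line at 0. The groups do not overlap for any gene shown, which the choice of called genes favours. Cox4i2 lies lowest in idelalisib cells.

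ATP synthase had 16 of its 17 nuclear entries tested, of which 2 were higher, 3 lower and 11 did not pass. That is 31.25% called, beside 44.6% of all genes tested. The median log2 fold change was -0.08 (0.08 with library size alone). The F1 head, where ATP is made, held 2 of the lower calls among 5 genes, beside 22.4% lower of all genes tested. Atp5d, the delta subunit of its stalk, had 214, 183 and 268 CPM in the idelalisib libraries, against 285, 279.8 and 272 CPM in the control libraries, and idelalisib replicate 3 came close to the control values (log2 fold change -0.33 with SE 0.11, edgeR adjusted p = 0.0302). Atp5e, the epsilon subunit beside it, had 71.8, 62.1 and 73.4 CPM in the idelalisib libraries, against 79.3, 84.7 and 93.1 CPM in the control libraries (log2 fold change -0.31 with SE 0.09, edgeR adjusted p = 0.0157). Atp5b, the catalytic beta subunit, had 928, 926 and 1042 CPM with idelalisib and 1022, 1068 and 1064 CPM in control, with overlapping groups, and did not pass (log2 fold change -0.12 with SE 0.08, edgeR adjusted p = 0.212). Atp5a1, its alpha partner, had 693, 715 and 762 CPM with idelalisib and 660.0, 689 and 691 CPM in control, the groups touching without overlap and without passing (log2 fold change 0.09 with SE 0.07, edgeR adjusted p = 0.359). Atp5c1, the gamma subunit that turns within the head, had 177, 182 and 193 CPM with idelalisib and 208, 217 and 207 CPM in control, without overlap, and did not pass (log2 fold change -0.19 with SE 0.08, edgeR adjusted p = 0.051). Atp5c1 lay at the threshold and was called lower with RLE scaling, DESeq2, limma-voom, a minimum count of 50, protein-coding genes alone or without idelalisib replicate 3.

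In the peripheral stalk, which holds the head still, Atp5h had 65.9, 65.4 and 63.6 CPM in the idelalisib libraries, against 74.8, 79.3 and 78.8 CPM in the control libraries (log2 fold change -0.26 with SE 0.08, edgeR adjusted p = 0.0176). Atp5j, the coupling factor 6 subunit, had 78.3, 72.9 and 78.7 CPM in the idelalisib libraries, against 66.5, 64.7 and 67.8 CPM in the control libraries (log2 fold change 0.21 with SE 0.08, edgeR adjusted p = 0.0486). Its groups were separate, but it overlaps Gabpa on the other strand and was the weakest call of all. Atp5g1, Atp5g2 and Atp5g3 encode the same mature subunit of the rotating c ring. Atp5g3 had 138, 156 and 146 CPM in the idelalisib libraries, against 116, 128 and 131 CPM in the control libraries (log2 fold change 0.23 with SE 0.08, edgeR adjusted p = 0.0393), whereas Atp5g1 (log2 fold change -0.07) and Atp5g2 (-0.09) did not pass. Atp5g3 supplied 43.2 ± 4.21% of the summed per-length level of the 3 genes with idelalisib and 38.1 ± 4.64% in control, with overlapping values. These shares depend on the gene lengths used, 4912 bases for Atp5g1, 1675 for Atp5g2 and 2181 for Atp5g3. Of the 50-base runs of Atp5g2, 38.3% occur in other genes. None of the 4 membrane subunit genes passed, with log2 fold changes of -0.06 for Atp5j2, -0.03 for Atp5k, -0.05 for Atp5l and -0.25 for Atp5mpl. The other stalk genes, Atp5f1 (-0.02) and the counted Atp5o entry (-0.12), did not pass. Atp5s, named for a coupling factor and known as DMAC2L, an assembly-related protein, had 5.86, 5.45 and 5.20 CPM in the idelalisib libraries, against 2.44, 4.03 and 2.43 CPM in the control libraries, a 1.85-fold difference (log2 fold change 0.89 with SE 0.24, edgeR adjusted p = 0.00801).

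Apart from Atp5s, the ATP synthase calls were sensitive to single libraries. The adjusted p reached 0.114 for Atp5d, whose call was lost without any library but idelalisib replicate 3, and 0.0938 for Atp5e without control replicate 3. It reached 0.0699 for Atp5h without control replicate 2 or 3, and 0.211 for Atp5g3 without any of the control replicates. For Atp5j it reached 0.163, and the call was kept only without idelalisib replicate 2. Atp5d, Atp5e and Atp5h also lost their calls with library size alone. Atp5d overlaps Cbarp on the other strand.

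The promoters of respiratory chain genes are known for sites of NRF1, ETS-family factors such as GABP, YY1 and ERR. Of 84 nuclear symbols, 66 had a promoter in the RefSeq-derived table (GRCm38.p6), each covering 250 bases before to 50 after the start. Both strands were searched for exact words, none of which contains another. CCGGAAG, an ETS word, was in 24.2% of the 66 and in 12.9% of 17492 protein-coding promoters. AAGATGGCG, a YY1 word, was in 10.6% and 2.14%, the NRF1 palindrome in 7.58% and 1.47%, and TCAAGGTCA, an ERR word, in 3.03% and 0.377%. The E-box CACGTG was in 7.58% and 8.91%, and the hypoxia word ACGTGC in 6.06% and 7.40%. A promoter with CACGTGC would count for both of the last.

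Among the called genes with a promoter, the ETS word was found at Atp5e, Atp5h, Atp5j, Ndufs3, Sdhb and Uqcrh, of which Atp5j and Sdhb were higher and Atp5e, Atp5h, Ndufs3 and Uqcrh lower. The YY1 word was found at Atp5j and Ndufc1, both higher. The NRF1 word was in 5 promoters, of Atp5g2, Atp5k, Cox6a1, Ndufa11 and Uqcrc1, none of a called gene. The E-box, ERR and hypoxia words were found at Atp5g3, which was higher, and at no other called gene with a promoter. The promoters of a higher gene with the YY1 word, a higher gene with the ETS word and 2 lower genes with the ETS word are given 5′ to 3′ on the gene's strand, from chr3:51408906-51409205 (minus), chr4:140961021-140961320 (plus), chr4:116075021-116075320 (minus) and chr2:174464052-174464351 (minus), with the word in capitals (CTTCCGG is CCGGAAG read on the other strand):
Ndufc1 promoter: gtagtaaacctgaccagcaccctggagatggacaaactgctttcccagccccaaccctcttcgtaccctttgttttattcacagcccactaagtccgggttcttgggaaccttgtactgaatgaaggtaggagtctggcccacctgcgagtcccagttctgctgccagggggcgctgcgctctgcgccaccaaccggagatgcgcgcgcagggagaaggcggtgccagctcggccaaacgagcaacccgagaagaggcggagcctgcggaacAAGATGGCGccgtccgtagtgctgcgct
Sdhb promoter: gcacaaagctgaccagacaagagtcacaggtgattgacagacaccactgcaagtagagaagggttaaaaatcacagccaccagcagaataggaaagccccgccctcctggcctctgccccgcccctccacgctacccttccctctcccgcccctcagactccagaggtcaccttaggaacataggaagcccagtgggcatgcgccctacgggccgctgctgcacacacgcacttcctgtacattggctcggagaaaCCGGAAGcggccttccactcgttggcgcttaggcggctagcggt
Uqcrh promoter: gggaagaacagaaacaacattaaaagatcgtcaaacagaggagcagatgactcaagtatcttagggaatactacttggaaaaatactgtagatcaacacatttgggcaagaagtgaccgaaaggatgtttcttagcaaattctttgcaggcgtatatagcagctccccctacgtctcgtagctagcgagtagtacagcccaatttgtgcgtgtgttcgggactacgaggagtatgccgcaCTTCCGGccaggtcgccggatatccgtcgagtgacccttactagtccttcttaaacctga
Atp5e promoter: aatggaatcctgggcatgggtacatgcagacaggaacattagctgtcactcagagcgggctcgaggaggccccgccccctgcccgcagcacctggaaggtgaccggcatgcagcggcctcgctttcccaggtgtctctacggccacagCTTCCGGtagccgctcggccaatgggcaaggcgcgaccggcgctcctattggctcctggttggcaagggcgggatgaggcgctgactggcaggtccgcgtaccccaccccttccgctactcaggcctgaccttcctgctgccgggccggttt
A match is a description of letters and was not tested against binding or against the direction of change.

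Genes that build, feed and regulate the chain also split in both directions, and some of their changes exceeded those of the subunits. Of 49 tested assembly factors (51 listed), 10 were higher and 5 lower, with a median log2 fold change of 0.05. Lyrm7 encodes an assembly factor that binds the Rieske protein of complex III. It had 3.36, 3.26 and 4.18 CPM in the idelalisib libraries, against 1.00, 0.925 and 1.00 CPM in the control libraries, with no overlap (log2 fold change 1.88 with SE 0.28, edgeR adjusted p = 0.000129). Sdhaf4, which matures the flavin subunit of complex II, had 4.54, 4.11 and 5.08 CPM in the idelalisib libraries, against 2.19, 2.31 and 1.36 CPM in the control libraries (log2 fold change 1.22 with SE 0.26, edgeR adjusted p = 0.00169), and Coa7, a complex IV assembly factor, had 6.25, 7.72 and 6.45 CPM in the idelalisib libraries, against 3.57, 3.57 and 3.00 CPM in the control libraries (log2 fold change 1.00 with SE 0.20, edgeR adjusted p = 0.00108). All 3 kept their calls whichever library was left out, at low read numbers of 14 to 109 per library.

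Of 22 electron carriers and other dehydrogenases that feed ubiquinone, 5 were higher and 2 lower, with a median of 0.16. Coq2, which attaches the side chain of ubiquinone, had 48.7, 42.7 and 51.1 CPM in the idelalisib libraries, against 21.6, 27.1 and 23.7 CPM in the control libraries, each idelalisib library far above each control library (log2 fold change 0.98 with SE 0.11, edgeR adjusted p = 1.18e-05). Pdss1, which makes that side chain, had 13.6, 11.5 and 9.73 CPM in the idelalisib libraries, against 7.57, 6.54 and 8.01 CPM in the control libraries (log2 fold change 0.66 with SE 0.17, edgeR adjusted p = 0.0064). Coq10b, a ubiquinone chaperone, had 12.2, 16.2 and 12.2 CPM in the idelalisib libraries, against 20.6, 15.9 and 27.7 CPM in the control libraries, with overlapping groups (log2 fold change -0.66 with SE 0.19, edgeR adjusted p = 0.0129), and its call was lost without idelalisib replicate 1, idelalisib replicate 3 or control replicate 3. Cycs, cytochrome c itself, had 78.1, 76.97 and 86.4 CPM with idelalisib and 82.03, 84.7 and 79.1 CPM in control (log2 fold change -0.03, adjusted p = 0.822), and Cyc1, the cytochrome c1 of complex III, had 79.7, 91.3 and 105 CPM with idelalisib and 78.4, 85.01 and 84.7 CPM in control (log2 fold change 0.15, adjusted p = 0.229), so neither passed.

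Of 41 tested genes for maintaining and expressing the mitochondrial genome (43 listed), 9 were higher and 6 lower, with a median of 0.06. Tfam, which packages mitochondrial DNA and starts its transcription, had 50.8, 52.5 and 50.8 CPM in the idelalisib libraries, against 33.7, 39.6 and 33.4 CPM in the control libraries and separate groups (log2 fold change 0.53 with SE 0.10, edgeR adjusted p = 0.000511). Tfb1m, a methyltransferase of the mitochondrial ribosomal RNA, had 9.15, 7.51 and 10.7 CPM in the idelalisib libraries, against 3.88, 6.47 and 4.79 CPM in the control libraries (log2 fold change 0.86 with SE 0.22, edgeR adjusted p = 0.00525). Polg2, the accessory subunit of the mitochondrial DNA polymerase, had 11.6, 13.2 and 14.4 CPM in the idelalisib libraries, against 24.2, 21.6 and 24.02 CPM in the control libraries (log2 fold change -0.83 with SE 0.13, edgeR adjusted p = 0.000142). Polrmt, the mitochondrial RNA polymerase, had 24.8, 23.7 and 29.7 CPM with idelalisib and 26.97, 27.7 and 23.4 CPM in control (log2 fold change 0.00, adjusted p = 0.984). Mterf1b, a termination factor gene that shares 61.3% of its runs with other genes, had 3.75, 2.97 and 2.39 CPM with idelalisib and 1.75, 0.925 and 1.93 CPM in control (log2 fold change 0.98, adjusted p = 0.0234), and its call was lost without idelalisib replicate 1 or control replicate 2.

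Of 16 tested regulators of mitochondrial biogenesis (20 listed), 3 were higher and 5 lower, with a median of -0.18. Pparg, a nuclear receptor of lipid metabolism, had 2.37, 3.19 and 4.54 CPM in the idelalisib libraries, against 0.876, 1.06 and 0.643 CPM in the control libraries, all low levels but without overlap (log2 fold change 1.96 with SE 0.34, edgeR adjusted p = 0.000426). Rxra, its partner receptor, had 30.02, 20.3 and 28.7 CPM in the idelalisib libraries, against 19.9, 18.2 and 16.4 CPM in the control libraries (log2 fold change 0.53 with SE 0.15, edgeR adjusted p = 0.00917), a call lost without idelalisib replicate 1. Ppard, the related receptor, had 63.7, 51.5 and 76.4 CPM in the idelalisib libraries, against 92.1, 85.6 and 81.8 CPM in the control libraries (log2 fold change -0.44 with SE 0.12, edgeR adjusted p = 0.00944), a call lost with library size alone. The coactivator Ppargc1a was not tested, with 1 read in the 6 libraries, and its relatives Ppargc1b (log2 fold change 0.33) and Pprc1 (-0.08) did not pass. Nor did Nrf1 (-0.16), Gabpa (-0.22) or Esrra (-0.30), although Esrra was called lower without idelalisib replicate 3 and Gabpa without idelalisib replicate 2.

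Of 19 tricarboxylic acid cycle genes, 5 were higher and 1 lower, with a median of 0.00. Pcx, pyruvate carboxylase, had 81.4, 71.9 and 95.3 CPM in the idelalisib libraries, against 43.6, 39.4 and 39.3 CPM in the control libraries (log2 fold change 1.02 with SE 0.11, edgeR adjusted p = 5.4e-06). The subunits of the NAD-dependent isocitrate dehydrogenase lay in opposite directions, with 75.1, 83.9 and 70.1 CPM in the idelalisib libraries, against 49.8, 55.8 and 53.97 CPM in the control libraries for Idh3a (log2 fold change 0.52 with SE 0.09, edgeR adjusted p = 0.000468) and 103, 103 and 113 CPM in the idelalisib libraries, against 155, 152 and 158 CPM in the control libraries for Idh3b (log2 fold change -0.55 with SE 0.08, edgeR adjusted p = 8.64e-05). Without idelalisib replicate 3 the lower calls of this list were 5. Of 77 tested mitochondrial ribosomal protein genes (78 listed), 11 were higher and 10 lower, with a median of -0.01. The largest changes were those of Mrps6, with 20.7, 29.5 and 25.5 CPM with idelalisib and 50.1, 42.9 and 51.97 CPM in control (log2 fold change -0.94, adjusted p = 4.93e-05), Mrpl45, with 76.5, 99.6 and 85.6 CPM with idelalisib and 143, 134 and 144 CPM in control (log2 fold change -0.68, adjusted p = 7.82e-05), and Mrpl9, with 67.01, 60.6 and 80.3 CPM with idelalisib and 103, 104 and 111 CPM in control (log2 fold change -0.61, adjusted p = 0.000266). Against the 44.6% of all genes called, the called share was 30.6% of assembly factors, 31.8% of electron carriers, 36.6% of expression genes, 31.6% of cycle genes and 27.3% of ribosomal proteins, and 8 of the 16 regulators were called.

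**Figure D5:**
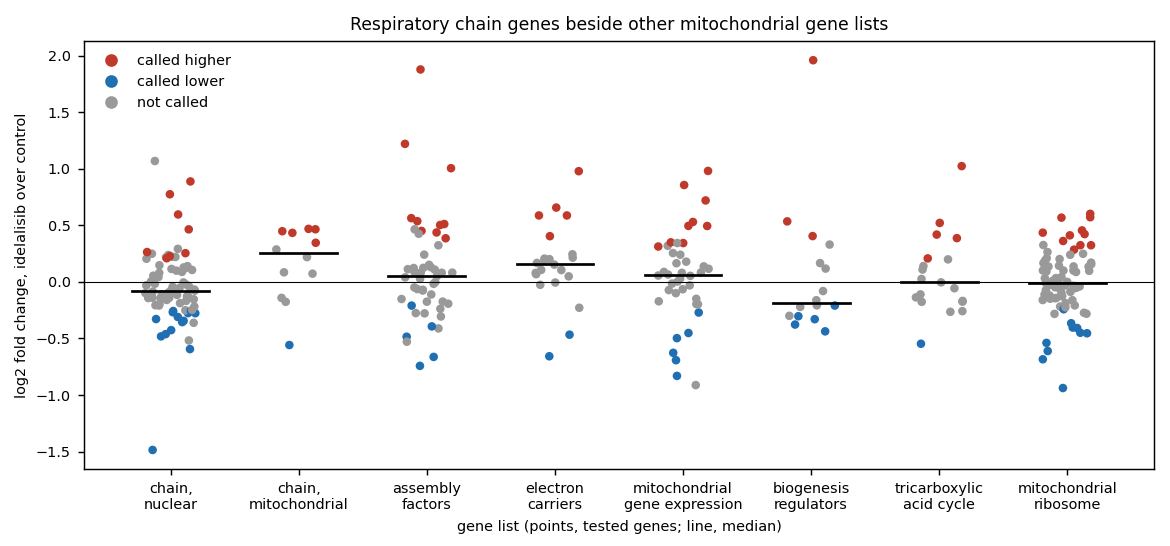
Log2 fold change, idelalisib over control, of the nuclear-encoded and mitochondrial-encoded respiratory chain genes and of 6 lists of related mitochondrial genes, each point a tested gene coloured by its call and each line a median. The subunit genes lie mostly within 0.5 of 0, and the higher outliers include Pparg at 1.96 and Lyrm7 at 1.88.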

How the data were processed

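Poly(A)-selected RNA of 6 cultures was sequenced, per the labels' protocols. The authors deposited raw read counts per gene, made with fastp, HISAT2 2.0.5 and featureCounts 1.5.0-p3 on build mm10, per the submitters' processing notes. The strand setting, the annotation release and the treatment of reads with several matches are not stated in the labels. Library names in the labels matched all 6 columns.

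Genes with too few counts were removed by filterByExpr (minimum count 10, minimum total 15), which left 14530. Counts were scaled with TMM and tested by edgeR 4.0.16 (R 4.3.3), with its robust quasi-likelihood F test on group alone. Benjamini-Hochberg adjustment ran over the 14530 genes, and calls needed an adjusted p under 0.05. Fold changes divide idelalisib by control. CPM uses TMM-scaled totals, and a level per kilobase divides it by the gene length in the table. The common biological coefficient of variation was 0.109. The procedure was first tested on simulated data.

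Within groups, the counts of 2 libraries differed by a chi-square of 4.63 to 18.2 per degree of freedom, so no library was a duplicate. At 13372318 to 16770452 counts per library, genes below a few CPM carry large counting error. Runs of 50 bases were compared with GENCODE M21 transcripts of both strands. The alternatives were other scalings, count filters, DESeq2 1.42.0, limma-voom (limma 3.58.1), protein-coding genes alone, a replicate block, a threshold of 0.01 and leaving out each library.

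The members and lists were chosen with earlier results of these data known. Genes were named by rule: all mitochondrial-encoded genes, the 3 called members of each nuclear group and called genes of each list with the largest changes at 1 CPM or more, the isoform families, and a fixed set of core subunits and regulators. Ndufs3, Ndufa6, Ndufc2, Ndufb11, Ndufa12, Ndufv2, Ndufs7, Ndufs8, the other members given by log2 fold change alone, Atp5c1, Atp5j, mt-Tn and mt-Tl2 were named after their values were seen. 1 gene of complex I is counted but not reported here.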

Additional observations from a re-analysis of the deposited data

How the results depend on the processing

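Counts are higher then lower calls of idelalisib over control. Library size alone, with or without mitochondrial counts in the total, gave 26 and 4 members, 0 lower mitochondrial-encoded genes, 8 and 1 in complex I, 3 higher in complex II, 3 and 1 in complex III and 0 lower in ATP synthase. For the lists it gave 16 and 3 assembly factors, 11 higher electron carriers, 14 higher mitochondrial expression genes (without mitochondrial counts), 0 lower biogenesis regulators, 8 higher tricarboxylic acid cycle genes, 23 and 5 mitochondrial ribosomal proteins and 4848 higher of all genes (without mitochondrial counts). An adjusted p under 0.01 left 2138 higher of all genes, 5 lower members, 0 lower mitochondrial-encoded genes, 1 and 2 in complex I, 0 higher in complex II, 1 lower in complex III, 0 and 0 in ATP synthase, 6 higher assembly factors, 2 and 1 electron carriers, 4 higher expression genes, 1 lower regulator, 3 higher cycle genes and 4 and 5 ribosomal proteins. Upper-quartile scaling gave 2 higher in complex II and 2 and 1 in complex III. Testing protein-coding genes alone gave 0 higher in complex II, 5 lower in complex IV, 0 and 5 in ATP synthase, 4 lower cycle genes and 7 higher ribosomal proteins. RLE scaling and DESeq2 each gave 1 higher in ATP synthase and 2 lower cycle genes, a minimum count of 1 gave 1 higher in ATP synthase, a minimum count of 50 gave 2 higher in complex II and limma-voom gave 0. With protein-coding counts as the denominator, nuclear-encoded genes took 0.727% of control counts. Of all genes tested, 30.6% were called at 0.01, 45.1% with upper-quartile scaling, 44.5% with RLE scaling and 42.3% with DESeq2. The share was 46.6% with protein-coding genes alone, 32.4% with a minimum count of 1, 50.2% with 50 and 44.5% with limma-voom. It was 48.5% with library size alone and 48.6% when that left out mitochondrial counts. The cause of the shifts between settings was not tested.

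Leaving out 1 library gave 8 to 20 higher and 7 to 21 lower members, 4 to 6 and 0 to 3 mitochondrial-encoded genes, 1 to 6 and 1 to 8 in complex I, 0 to 2 higher in complex II, 1 to 3 and 1 to 3 in complex III, 1 to 1 and 2 to 4 in complex IV and 0 to 2 and 0 to 6 in ATP synthase. It gave 6 to 11 and 4 to 7 assembly factors, 3 to 7 and 1 to 3 electron carriers, 5 to 8 and 5 to 8 expression genes, 2 to 3 and 2 to 7 regulators, 3 to 6 and 1 to 5 cycle genes, 5 to 13 and 5 to 14 ribosomal proteins and 2472 to 3599 and 2617 to 3581 of all genes. The log2 fold change of mt-Co2 ranged over -0.38 to 0.28, the lowest being a reversed, called value without idelalisib replicate 2 (edgeR adjusted p = 0.0155).

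The labels do not say whether same-numbered cultures were paired. Deviations of same-numbered libraries from their group means correlated at 0.0764, -0.132 and -0.101, and not every library correlated best with its own number. With 3 libraries per group these values cannot settle whether the cultures were paired. With the replicate block 10 members were higher and 15 lower, beside 2910 higher and 3051 lower of all genes, or 20% and 21%. The block gave 0 lower mitochondrial-encoded genes, 1 higher in complex I, 0 higher in ATP synthase and 5 higher ribosomal proteins. Over the named genes 1196 values kept direction and call, 40 gained a call, 67 lost one and 1 reversed. Depth limits mt-Atp8, Cox4i2 and Cox6a2, which had few reads.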

Other observations

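The mitochondrial chromosome also encodes the ribosomal RNAs and tRNAs of the organelle, which the poly(A) selection captures only in part. mt-Rnr1, the small ribosomal RNA, had 304, 636 and 389 CPM in the idelalisib libraries, against 844, 858 and 1114 CPM in the control libraries, without overlap (log2 fold change -1.08 with SE 0.32, edgeR adjusted p = 0.0474). mt-Rnr2, the large one, had 799.9, 1257 and 907 CPM in the idelalisib libraries, against 1239, 1268 and 1481 CPM in the control libraries, with overlapping groups (log2 fold change -0.43 with SE 0.15, edgeR adjusted p = 0.046). Both lay in the direction opposite to mt-Nd2, mt-Nd4, mt-Nd5, mt-Nd6 and mt-Cytb. Both calls were lost when either control replicate 1, 2 or 3 or idelalisib replicate 3 was left out (adjusted p up to 0.171 for mt-Rnr1 and 0.318 for mt-Rnr2), that of mt-Rnr2 also without idelalisib replicate 1, and with library size alone. Idelalisib replicate 2 had the highest idelalisib value of both. Efficiency of capture was not measured.

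Of 22 mitochondrial tRNA genes 13 were tested, 1 was higher and 1 was lower, beside 22.2% and 22.4% of all genes tested. The median log2 fold change of the 13 was 0.16. mt-Tn had 8.82, 9.70 and 7.29 CPM in the idelalisib libraries, against 5.26, 4.10 and 4.79 CPM in the control libraries, with separate groups (log2 fold change 0.86 with SE 0.19, edgeR adjusted p = 0.00225). mt-Tl2 had 11.7, 13.1 and 11.6 CPM in the idelalisib libraries, against 18.5, 15.6 and 20.7 CPM in the control libraries, also separate and in the other direction (log2 fold change -0.59 with SE 0.14, edgeR adjusted p = 0.00365). These were the called tRNA genes, and both kept their calls whichever library was left out.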
